A study of Mus musculus with 41 samples.

Results

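The sites considered here are the places in the genome called with an antibody against LSD1 in cultured mouse cortical neurons labelled LSD1n KO and LSD1n WT. The LSD1n KO list held 13445 sites on chromosomes 1 to 19 and the LSD1n WT list 13207, together 26652 of the 488881 entries in the 27 peak lists of the series. A WT site was called kept where a KO site lay within 1 kb of it, measured between nearest ends, and lost otherwise. A KO site was called shared where a WT site lay within 1 kb, and gained otherwise. No measured signal chose these sites beyond their presence in the lists.

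LSD1 (Kdm1a) is a demethylase that removes methyl groups from mono- and dimethylated lysine 4 of histone H3, marks of enhancers and promoters, and it works in complexes with the CoREST proteins and histone deacetylases. LSD1n is a form found in neurons, made by splicing a small extra exon into the message, and the title of the series names it a demethylase of histone H4 lysine 20. LSD1c is the other form tagged in this series, and its labels say no more of it. An antibody against LSD1 could see either form, and the labels do not say whether this one tells them apart.

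All neurons were primary cortical cultures at 10 days in vitro. For the LSD1 antibody, the LSD1n KO library has no KCl time in its labels and the LSD1n WT library is labelled 0 h in 55 mM KCl, a bath that depolarizes neurons. Wild type neurons gave a further pair of lists with the same antibody, at 0 h and 1 h. Flag-tagged LSD1n and LSD1c were called with the M2 antibody in neurons labelled R26/LSD1n and R26/LSD1c at 0 h and 1 h. The marks H3K4me1, H4K20me1 and H3K36me3 and RNA polymerase II (Pol II) were called in LSD1n KO and LSD1n WT neurons at 0 h and 1 h, and H3K4me2 is used here from LSD1n WT alone. The labels do not say how the KO allele was made, how many animals were pooled, or what drives the tagged forms. No gene annotation or sequence of the build used for these lists (mm9) was used here, so sites are given by position and neuronal marker genes were not examined.

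Each genotype has 1 library for this antibody, so no difference between KO and WT was tested, and all bracketed ranges are 95% intervals that cover counting error only. The KO library was deeper, with 31532169 tags against 17993780 in WT, 1.75 times as many. Its minimum number of tags per site was 15, against 12 in WT, which is 4.76 against 6.67 when scaled to 10000000 tags. In KO 11937 of 25646 candidate peaks (46.5%) were removed for being too little above the surrounding 10 kb, against 4175 of 17575 (23.8%) in WT. The title prefixes of the libraries also differ, so genotype and library cannot be told apart. The part of depth, threshold, local filter, prefix and the missing KCl time in the differences below was not tested.

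Most sites called in WT neurons were also called in LSD1n KO neurons. In the KO list 8257 of the 13207 WT sites were kept, 62.5% (61.7 to 63.3), and 4950 (37.5%) were lost. Of the 13445 KO sites, 7995 were shared, 59.5% (58.6 to 60.3), and 5450 (40.5%) were gained. The numbers of sites differed by a log2 ratio of KO over WT of 0.026 (-0.0090 to 0.061), so that losses and gains were nearly balanced. By the share of tags in peaks, 0.959% in KO against 1.23% in WT, this ratio was -0.36. For scale, the stretches within 1 kb of a KO site covered 1.13% of the span of chromosomes 1 to 19, and those within 1 kb of a WT site 1.09%.

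Shared places were close to each other, and lost and gained ones were far from any site of the other list. Kept WT sites had a median distance of 75 bp between their centre and that of the nearest KO site, and 5848 of the 8257 (70.8%) overlapped it by at least 1 bp. Counting overlaps alone, 44.3% of WT sites were kept. Gained sites had a median distance of 48.4 kb to the nearest WT site, and lost sites 39.8 kb to the nearest KO site. The classes therefore did not hinge on calls just beyond 1 kb: within 5 kb, 65.8% of WT sites were kept.

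Losses and gains were spread over all 19 autosomes. The share of KO sites gained ran from 35.4% on chromosome 19 to 46.9% on chromosome 1. For WT sites, the share lost ran from 33.5% on chromosome 14 to 40.8% on chromosome 1. Kept sites more often had a neighbour in their own list. Another KO site lay within 5 kb of 10.1% of gained sites, against 27.8% of shared KO sites. Among WT sites these shares were 19.1% of the lost and 34.5% of the kept.

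The place of a site in its list went with whether it was shared. In the first of 10 equal parts of each list, in file order, 96.8% (95.7 to 97.7) of KO sites and 94.7% (93.4 to 95.8) of WT sites were found in the other list. In the last part these shares were 18.1% (16.1 to 20.2) of KO sites and 39.5% (36.9 to 42.2) of WT sites. The deposited score is the same for every site, so file order was the one available ranking, and what it was sorted by is not stated in the files.

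**Figure D1:**
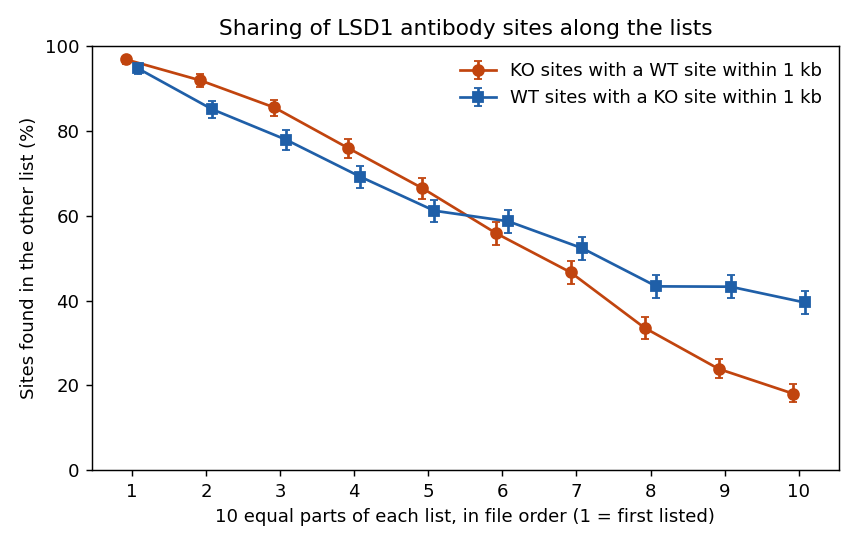
Share of sites with a site of the other list within 1 kb (y axis, %) in each of 10 equal parts of the list in file order (x axis), for KO sites (circles) and WT sites (squares), with 95% Clopper-Pearson intervals. The KO curve runs from 96.8% to 18.1% and the WT curve from 94.7% to 39.5%, and they cross near the middle of the lists.

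With the first 50% of each list set against the first 50% of the other, sharing was only a little higher. The KO list then shared 4407 of 6722 sites, 65.6% (64.4 to 66.7), and the WT list kept 4482 of 6603, 67.9% (66.7 to 69.0). Many of the remaining sites lay in the later part of the other list. Set against the whole other list, 1120 of the first 6722 KO sites (16.7%) and 1477 of the first 6603 WT sites (22.4%) had no partner. Thus first-listed WT sites were missing from KO somewhat more often than first-listed KO sites were missing from WT, while the later-listed ones went the other way, with 64.4% of KO and 52.6% of WT sites unpartnered.

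The wild type lists at 0 h and 1 h, from neurons that keep LSD1n, were set beside KO for scale. The pair differs in KCl time, and its title prefixes differ from that of the WT list. It therefore gives no measure of library differences alone. Of the wild type sites at 0 h, 48.2% were found in the list at 1 h, and 53.0% the other way. Of the WT sites, 62.5% were found in KO, against 74.3% (73.6 to 75.1) in the wild type list at 0 h, which is longer, with 22305 sites. When the wild type list was shortened to the length of the KO list, the difference was -2.32 percentage points. With 13207 sites taken from each list, KO held 62.3% (61.5 to 63.1) of WT sites and the wild type list at 0 h held 64.4% (63.6 to 65.3). In the other direction, WT held 60.3% (59.4 to 61.1) of KO sites, and 64.8% (64.0 to 65.6) of wild type sites at 0 h. The wild type list at 1 h held fewer WT sites than KO did, 54.2% in full and 45.0% (44.2 to 45.9) at equal length. The KO list thus stood between the wild type lists in the share of WT sites it held, both in full and at equal length.

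Both lists had more of their sites in the wild type list at 0 h than in that at 1 h. The KO list had 72.8% (72.0 to 73.5) of its sites in the wild type list at 0 h and 51.4% (50.6 to 52.3) in that at 1 h. For the WT list these shares were 74.3% and 54.2% (53.4 to 55.1). Sites found in the 1 h list and not in the 0 h list made up 6.18% of KO sites and 7.31% of WT sites. The KO library, whose labels give no time, had the same order of shares as the WT library labelled 0 h. The wild type lists differ in length, with 22305 and 18258 sites. With 13207 sites taken from each list the order was the same. KO then had 61.0% (60.2 to 61.8) of its sites in the list at 0 h and 43.0% (42.2 to 43.9) in that at 1 h, and WT 64.4% and 45.0%.

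Many gained sites were called in neurons that have LSD1n. In the wild type list at 0 h, 46.7% (45.4 to 48.1) of gained sites were present, close to the 47.6% (46.2 to 49.0) of lost sites. At least 1 of the wild type lists held 3060 of the 5450 gained sites (56.1%) and 2976 of the 4950 lost sites (60.1%). Of the shared KO sites 94.5% were in a wild type list, and of the kept WT sites 94.6%. This leaves 2390 gained and 1974 lost sites seen in 1 of the 4 LSD1 lists alone.

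To compare the 4 LSD1 lists on equal terms, sites within 1 kb of each other were joined into 32874 places. All 4 lists called 4276 of these places. KO was the one list without a call at 1020 places, WT at 1086, wild type 0 h at 268 and wild type 1 h at 2103. With 13207 sites per list these numbers were 633, 560, 440 and 2386. Places missing from KO alone were therefore about as many as those missing from WT alone, and their order changed with the length of the lists.

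**Figure D2:**
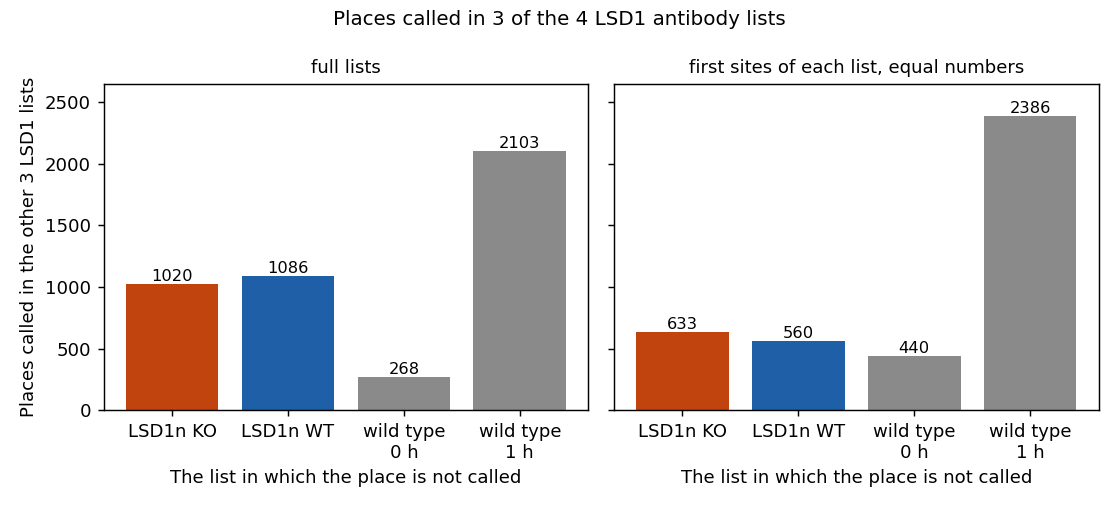
Number of places called in 3 of the 4 LSD1 antibody lists (y axis), by the list in which the place was not called (x axis), for the full lists (left) and for the first 13207 sites of each (right). The bars of LSD1n KO and LSD1n WT are alike in height in both panels (1020 and 1086, then 633 and 560), and wild type 1 h has the tallest bar.

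Places missing from KO alone were near tagged LSD1 less often than places of all 4 lists, and somewhat more often than places missing from WT alone. Of the 1020 places missing from KO alone, 318 (31.2%, 28.3 to 34.1) lay within 1 kb of a Flag-LSD1n site, pooled over 0 h and 1 h. Of the 1086 missing from WT alone, 301 (27.7%, 25.1 to 30.5) did. Places of all 4 lists reached 41.2% (39.7 to 42.7). The shares for Flag-LSD1c were 48.3% (45.2 to 51.5) without KO, 42.1% (39.1 to 45.1) without WT and 58.4% (56.9 to 59.9) in all 4.

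Tagged LSD1n and LSD1c marked the kept sites more than the lost ones, and both isoforms did so. Flag-LSD1n lay within 1 kb of 16.6% (15.6 to 17.7) of lost sites and 32.9% (31.9 to 33.9) of kept WT sites, a difference of -16.3 percentage points (-17.7 to -14.8). For Flag-LSD1c the shares were 25.4% (24.2 to 26.6) and 47.1% (46.0 to 48.1), a difference of -21.7 points (-23.3 to -20.04). Requiring a Flag site to overlap the LSD1 site brought these differences to -5.20 and -7.35 points, and calling sites kept by overlap alone brought them to -8.28 and -10.4.

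Over the whole lists, gained sites carried tagged LSD1 least often. Flag-LSD1n was near 11.6% (10.8 to 12.5) of gained sites and 32.8% (31.8 to 33.9) of shared KO sites, and Flag-LSD1c near 17.2% (16.2 to 18.2) and 46.9% (45.8 to 48.0). Gained sites were below lost sites by -4.95 points (-6.30 to -3.61) for Flag-LSD1n. That order did not hold among the first-listed sites: with the first 50% of each list, Flag-LSD1n was near 27.3% (25.5 to 29.1) of gained sites and 23.5% (21.7 to 25.3) of lost sites, a difference of 3.78 points. Flag-LSD1c was near 39.1% (37.1 to 41.2) of gained and 37.1% (35.0 to 39.2) of lost sites there. First-listed sites without a partner in the whole other list had Flag-LSD1n at 19.3% (17.0 to 21.7) among gained and 20.4% (18.4 to 22.5) among lost sites.

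The 2 Flag-LSD1n lists differ greatly in length, with 802 sites at 0 h and 4336 at 1 h on these chromosomes, so the pooled values rest mostly on 1 h. At 0 h alone Flag-LSD1n was near 2.09% of gained, 2.57% of lost and 5.49% of kept WT sites. At 1 h it was near 10.8%, 15.3% and 31.4% of these. The lists of Flag-LSD1c were closer to each other, and gave 9.74% of gained, 13.4% of lost and 27.5% of kept WT sites at 0 h, and 13.0%, 19.3% and 36.6% at 1 h.

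**Figure D3:**
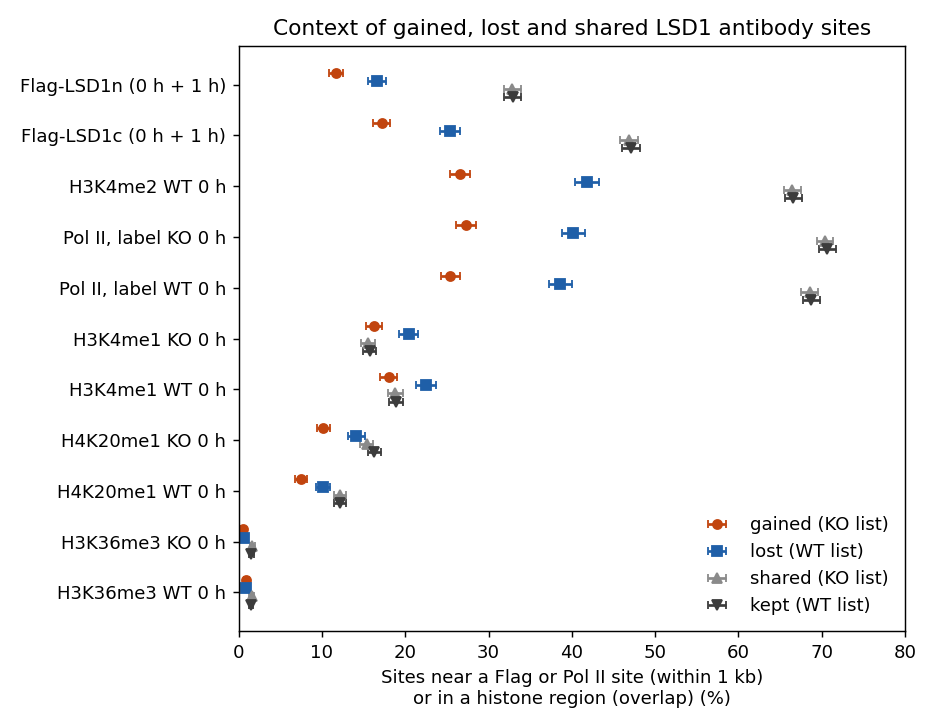
Share of gained, lost, shared (KO list) and kept (WT list) LSD1 antibody sites (x axis, %) near a Flag or Pol II site or inside a histone region (y axis), with 95% Clopper-Pearson intervals. Gained and lost sites lie to the left of shared and kept ones for both Flag isoforms, H3K4me2 and Pol II, and the classes lie close together for H3K4me1, H4K20me1 and H3K36me3.

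Sites near the tagged neuronal isoform alone were kept in KO in a share close to that of sites near LSD1c alone. Of the 901 WT sites near Flag-LSD1n and not near Flag-LSD1c, 685 were kept, 76.0% (73.1 to 78.8). Of the 2505 WT sites near Flag-LSD1c alone 1854 were kept, 74.0% (72.3 to 75.7). Sites near both isoforms were kept in 77.0% (75.4 to 78.6) of 2636 cases, and the 7165 sites near neither in 51.5% (50.3 to 52.6), against 62.5% of all WT sites. The difference of LSD1n alone minus LSD1c alone was 2.01 points (-1.33 to 5.21), an interval that includes 0 and a gap of several points.

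In the KO list, with the Flag lists of both times pooled, the tagged classes were shared with WT in close shares. These were 80.3% (77.4 to 83.0) of 804 sites near LSD1n alone, 79.4% (77.7 to 81.1) of 2230 near LSD1c alone, 80.6% (79.0 to 82.2) of 2455 near both, and 45.2% (44.1 to 46.3) of 7956 near neither. Here LSD1n alone minus LSD1c alone was 0.931 points (-2.38 to 4.05). With the Flag lists of 0 h the order was the other one, 73.6% (67.0 to 79.4) of 208 KO sites near LSD1n alone and 80.2% (78.5 to 81.8) of 2382 near LSD1c alone. LSD1n alone marked 5.98% of KO sites and 6.82% of WT sites. In the wild type list at 0 h, 86.1% (83.7 to 88.3) of the WT sites near pooled LSD1n alone and 86.1% (84.7 to 87.4) of those near pooled LSD1c alone were found. That likeness did not hold with the Flag lists of 0 h, which gave 79.4% (73.4 to 84.6) for LSD1n alone and 88.2% (86.9 to 89.4) for LSD1c alone.

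With pooled Flag lists, the isoform classes stayed close along the lists. Among the first of 5 equal parts of the WT list, 93.4% (89.3 to 96.2) of the sites near LSD1n alone, 90.5% (88.0 to 92.7) near LSD1c alone and 85.8% (83.6 to 87.8) near neither were kept. In the last of the 5 parts these shares were 64.2% (54.9 to 72.7), 62.1% (56.7 to 67.3) and 31.7% (29.5 to 33.9). The KO list behaved similarly, with 51.7% (38.4 to 64.8), 52.4% (45.0 to 59.7) and 14.9% (13.5 to 16.5) shared in its last part. Tagged sites were therefore kept more often than untagged ones at every place in the list, whichever isoform carried the tag.

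**Figure D4:**
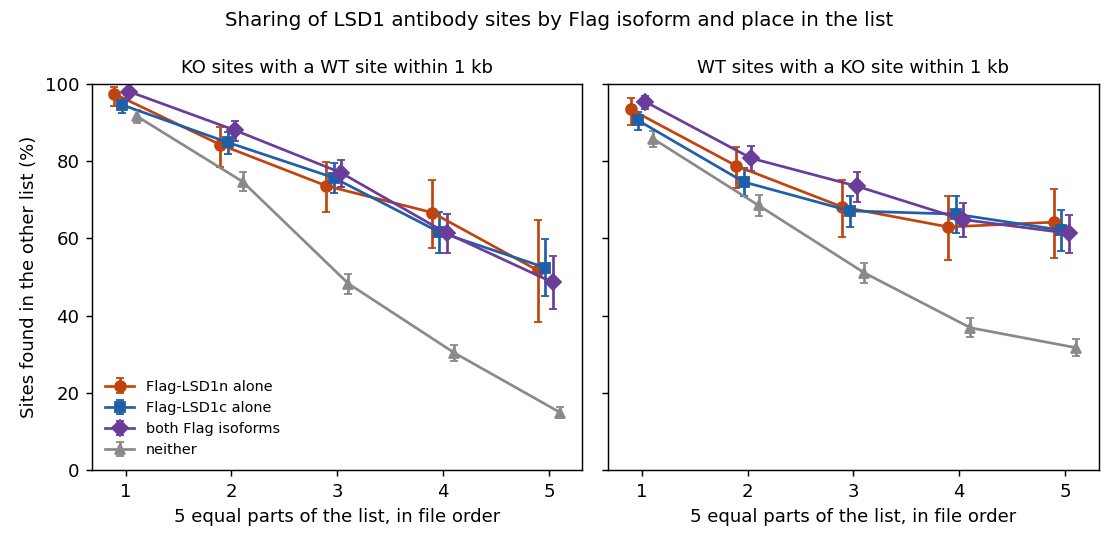
Share of LSD1 antibody sites found in the other list (y axis, %) in 5 equal parts of the KO list (left) and the WT list (right) in file order (x axis), by the Flag isoforms within 1 kb, with 95% Clopper-Pearson intervals. The curves for LSD1n alone, LSD1c alone and both isoforms run together, and the curve for neither lies below them in all 5 parts of both lists.

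Seen from the Flag lists, the LSD1 antibody found tagged LSD1n sites nearly as often in KO as in WT. Of the 4336 Flag-LSD1n sites at 1 h, 2710 had a KO site within 1 kb, 62.5% (61.0 to 63.9), and 2847 had a WT site, 65.7% (64.2 to 67.1). Both lists covered 2188 of them, KO alone 522, WT alone 659, and neither 967. Among the 1122 without a Flag-LSD1c site nearby, the shares were 58.6% (55.7 to 61.5) in KO and 61.9% (59.0 to 64.8) in WT.

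Flag-LSD1c sites were also found slightly less often in KO than in WT. At 0 h 62.2% (60.6 to 63.7) of the 3826 Flag-LSD1c sites had a KO site and 64.5% (62.9 to 66.0) a WT site. At 1 h 59.2% (57.9 to 60.6) of the 5437 Flag-LSD1c sites had a KO site and 63.4% (62.1 to 64.7) a WT site. Of the 2629 without Flag-LSD1n nearby, 54.0% (52.1 to 55.9) had a KO site and 59.0% (57.1 to 60.9) a WT site. The few Flag-LSD1n sites at 0 h gave 63.1% (59.6 to 66.4) in KO and 63.0% (59.5 to 66.3) in WT. Among these, the 203 without Flag-LSD1c were covered less, 41.4% (34.5 to 48.5) by KO and 38.4% (31.7 to 45.5) by WT.

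H3K4me2, the promoter and enhancer mark that LSD1 can remove, was the histone mark with the widest gap between the classes in percentage points. Its WT regions at 0 h overlapped 26.5% (25.4 to 27.7) of gained sites, 41.8% (40.4 to 43.2) of lost sites and 66.6% (65.6 to 67.6) of kept WT sites. The difference between lost and kept sites was -24.8 points (-26.5 to -23.0), and with the mark at 1 h it was -16.7 points. Among the first of 5 equal parts of the WT list it was almost gone, with 73.4% (67.7 to 78.6) of lost and 75.7% (73.9 to 77.4) of kept sites in H3K4me2. Among the last part 27.7% (25.5 to 30.0) of lost and 54.7% (51.7 to 57.7) of kept sites lay in it. Lost sites in the first part of the WT list thus had nearly as much H3K4me2 as the kept ones. Flag-LSD1n still differed there, at 16.9% (12.6 to 21.9) against 34.6% (32.7 to 36.5). In the second part H3K4me2 already differed, at 59.7% (55.9 to 63.3) of lost and 68.2% (66.1 to 70.3) of kept sites. The first part of the KO list also had a gap, with 63.8% (55.6 to 71.4) of gained and 74.6% (72.8 to 76.3) of shared sites in H3K4me2.

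Pol II, which marks transcribed promoters and active enhancers, followed H3K4me2. By the sample labels, the KO list of Pol II at 0 h lay within 1 kb of 27.3% of gained, 40.2% of lost and 70.7% of kept WT sites, and the WT list of 25.4%, 38.6% and 68.7%. Headers of these Pol II files carry the other genotype than their sample labels, so which one is KO is uncertain, and both lists gave the same order. At 1 h the shares were 30.2%, 44.2% and 76.4% with the list labelled KO, and 28.6%, 41.7% and 74.1% with that labelled WT.

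Combined, H3K4me2 and Pol II described most shared sites and a minority of gained ones. Sites with both made up 18.9% of gained, 30.8% of lost, 55.1% of shared KO and 54.8% of kept WT sites. Sites with no H3K4me2, H3K4me1 or Pol II made up 56.6% of gained, 39.4% of lost, 15.1% of shared and 14.8% of kept sites. Read the other way, 74.8% (73.7 to 75.9) of the 6045 WT sites with H3K4me2 and Pol II were kept, against 38.5% (36.8 to 40.3) of the 3170 with none of the 3. WT sites with Pol II and no H3K4me2 were kept in a close share, 74.9% (72.6 to 77.0) of 1543. In the KO list such sites were shared less often than those with both, 75.3% (73.0 to 77.5) of 1437 against 81.0% (79.97 to 82.1) of 5432.

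**Figure D5:**
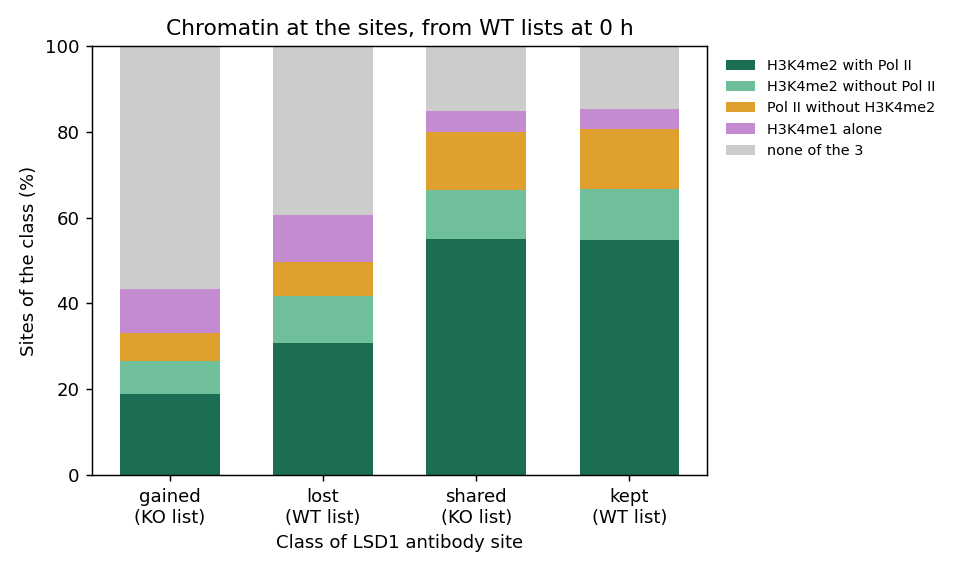
Percentage of each class of LSD1 antibody site (x axis) in 5 kinds of chromatin (stacked bars, y axis, %), from the WT lists of H3K4me2, H3K4me1 and Pol II (by label) at 0 h. Sites with none of the 3 make up 56.6% of gained and 39.4% of lost sites, and 15.1% and 14.8% of shared and kept ones.

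Gained and lost sites that a wild type list also called had more of these features than those seen in 1 LSD1 list alone. Of the gained sites in a wild type list, 40.2% (38.5 to 42.0) lay in H3K4me2 and 18.5% (17.2 to 19.95) near Flag-LSD1n. Gained sites in no wild type list had 9.04% (7.92 to 10.3) and 2.80% (2.18 to 3.55). Among lost sites the shares were 55.3% (53.5 to 57.1) and 23.6% (22.1 to 25.2) in a wild type list, and 21.4% (19.6 to 23.3) and 5.98% (4.97 to 7.12) in none. Lost sites were above gained sites in each of these pairs.

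H3K4me1, a mark of enhancers, went the other way over the whole lists, with lost sites marked most often. WT regions of H3K4me1 at 0 h overlapped 18.0% (17.0 to 19.05) of gained, 22.5% (21.3 to 23.7) of lost and 18.9% (18.0 to 19.7) of kept WT sites. KO regions gave 16.3%, 20.4% and 15.7%. Lost sites were thus above kept sites by 3.63 points (2.20 to 5.07) in the WT list of the mark and by 4.68 (3.32 to 6.06) in the KO list. At 1 h, with longer lists, the shares in KO regions were 34.7% of gained, 40.5% of lost and 36.7% of kept sites, and in WT regions 23.7%, 32.5% and 29.6%. This order was not seen throughout: with the first 50% of each list, KO regions at 0 h held 18.4% of gained, 17.7% of lost and 16.1% of kept sites. In the first of 5 parts of the WT list, KO regions at 1 h held 34.5% (28.8 to 40.5) of lost and 38.4% (36.5 to 40.4) of kept sites.

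WT sites with H3K4me1 and no H3K4me2 or Pol II, a pattern seen at enhancers without strong activity, were among the least kept. Of these 926 sites 382 were kept, 41.3% (38.1 to 44.5), close to the 38.5% of sites with none of the 3. Tagged LSD1 was rare there: Flag-LSD1n was near 2.27% and Flag-LSD1c near 4.32% of them, against 43.6% and 63.2% of WT sites with H3K4me2 and Pol II.

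H4K20me1, the mark that the series title links to LSD1n, covered lost sites slightly less than kept ones over the whole lists. At 0 h its KO regions overlapped 10.2% (9.39 to 11.02) of gained, 14.1% (13.2 to 15.1) of lost and 16.3% (15.5 to 17.1) of kept WT sites. Its WT regions overlapped 7.47% (6.78 to 8.20), 10.1% (9.26 to 10.95) and 12.2% (11.5 to 12.9). The log2 ratio of the KO share over the WT share was 0.45 at gained, 0.49 at lost, 0.42 at kept and 0.34 at shared KO sites. In the first of 5 parts of the WT list this order turned round in KO regions, with 26.2% (21.0 to 31.9) of lost and 18.2% (16.7 to 19.8) of kept sites. WT regions kept the order there, with 13.9% of lost and 14.9% of kept sites. For the first 50% of the WT list against the whole KO list, KO regions held 19.5% of lost and 17.4% of kept sites, and WT regions 13.9% and 13.2%. With the first 50% of each list set against the first 50% of the other, the order did not turn round. KO regions then held 17.3% of lost and 18.1% of kept sites, and WT regions 12.2% and 13.9%. The share in KO regions was thus above that in WT regions in all classes. On chromosomes 1 to 19 the KO list of this mark was also the larger. It had 35877 regions over 92.9 Mb, against 25235 regions over 49.6 Mb in WT.

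At 1 h the KO share of H4K20me1 lay between those of the replicate WT lists in every class. KO regions overlapped 2.94% of gained, 5.25% of lost and 7.17% of kept sites. Replicate 1 of WT overlapped 6.39%, 9.13% and 9.57%, where lost minus kept was -0.436 points (-1.45 to 0.601), and replicate 2, 1.41%, 2.32% and 3.74%. These lists differ greatly in length, with 8970 regions in KO against 28248 and 2769 in WT on chromosomes 1 to 19. By title, the KO library shares its prefix with replicate 2 of WT, which it exceeded in every class, and replicate 1 has another prefix. Broad H4K20me1 regions, wider than 10 kb, had another order of classes at 0 h, with lost sites highest: KO ones held 2.77% (2.35 to 3.24) of gained, 4.67% (4.10 to 5.29) of lost and 3.23% (2.86 to 3.64) of kept sites. WT ones held 1.12%, 1.80% (1.45 to 2.21) and 1.03% (0.823 to 1.27).

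H3K36me3, laid down along transcribed genes, was rare at all sites. At 0 h KO regions overlapped 26 gained, 33 lost and 126 kept WT sites, or 0.477%, 0.667% and 1.53%. WT regions overlapped 50, 44 and 123, or 0.917%, 0.889% and 1.49%. On chromosomes 1 to 19 the KO list of this mark had 3612 regions against 11459 in WT. At 1 h KO regions overlapped 78 kept sites (0.945%) and WT regions 153 (1.85%), so the near equality at kept sites was seen at 0 h and not at 1 h.

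Regions called with all 8 antibody targets of the series held few of the sites. Peaks of all 8 targets overlapped 2 gained, 1 lost, 67 shared and 69 kept sites. Leaving these sites out changed the share of WT sites kept to 62.3%. They are absent from the positions named next.

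The first-listed kept sites were near the top of the WT list. They were chr8:81819023-81819223, chr9:3030079-3030279 and chr2:32463158-32463358, at places 14, 16 and 21 of the WT list, with KO centres 9, 0 and 11 bp away. All 3 were in both wild type lists and in H3K4me2. The site on chromosome 2 had Flag-LSD1n at 1 h and no Flag-LSD1c at either time, and lay in H4K20me1 in KO and not in WT. The others were near both isoforms, as was the next in order of the kept sites with both, chr16:10975136-10975336 at place 27, with a KO centre 1 bp away. The sites on chromosomes 9 and 16 were called with almost every target of the series. They lay in H3K4me2, and in H3K4me1, H4K20me1 and H3K36me3 regions of both genotypes at 0 h, and near no Pol II site at 0 h.

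The first-listed lost sites came much later, at places 145, 192 and 252 of the WT list. The first pair are neighbours, chr18:3008681-3008881 and chr18:3009503-3009703, 2862 and 3684 bp from the nearest KO centre. Neither was in a wild type list or near a Flag site. At 0 h both lay in H3K4me2 regions of WT, and in H3K36me3 and H4K20me1 regions of both genotypes. They also lay in H3K4me1 regions of KO and not of WT at 0 h, and near Pol II in the list labelled KO alone. The other, chr1:90173820-90174020, was 98.6 kb from the nearest KO site. It was in both wild type lists, near Flag-LSD1c at both times and near no Flag-LSD1n site. At 0 h it also lay in H3K4me2, in H3K4me1, H4K20me1 and H3K36me3 regions of both genotypes, and near Pol II in the lists of both labels.

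The first-listed gained sites were at places 108, 169 and 237 of the KO list: chr2:52530802-52531002, chr10:94406725-94406925 and chr1:87489410-87489610. They were 70.0 kb, 23.7 kb and 7875 bp from the nearest WT centre. All 3 were in the wild type list at 0 h, so each had been called in neurons that keep LSD1n. The third was near Flag-LSD1n and Flag-LSD1c at 0 h, and the others were near no Flag site. At 0 h the third also lay in H3K4me2, and in H3K4me1, H4K20me1 and H3K36me3 regions of both genotypes, and near no Pol II site.

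A set of 216 lost sites had Flag-LSD1n and no Flag-LSD1c within 1 kb, 4.36% (3.81 to 4.97) of lost sites, against 8.30% (7.71 to 8.91) of kept ones. The first-listed of them were chr8:19923987-19924187, chr9:94439334-94439534 and chr13:69137736-69137936, at places 696, 1061 and 1105 of the WT list. The nearest KO centres were 2466 bp, 131 kb and 218 kb away. Those on chromosomes 9 and 13 had Flag-LSD1n at 1 h and H3K4me2. At 0 h Pol II was near the site on chromosome 9 in the lists of both labels. It was near that on chromosome 13 in the list labelled WT alone. Both sites were called in wild type neurons at 1 h, that on chromosome 13 also at 0 h. The site on chromosome 8 had Flag-LSD1n at 0 h alone, and was in no wild type list and not in H3K4me2. At 0 h it was near Pol II in the lists of both labels, and in H3K4me1, H4K20me1 and H3K36me3 regions of KO and not of WT. In KO the corresponding set of gained sites numbered 158, 2.90% (2.47 to 3.38) of gained sites.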

How the data were processed

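Peaks of 27 chromatin immunoprecipitation libraries were used. Reads were aligned with Bowtie to build mm9 and peaks called with HOMER, per the submitters' processing notes, which give no versions. Per the file headers, the authors called LSD1, Flag and Pol II sites per library as 200 bp peaks at least 500 bp apart, with a false discovery rate of 0.001 and a 4-fold excess over the local 10 kb. Histone regions were stitched from peaks of 500 bp. No control library is named. The deposited values are positions in bp, and the deposited score is 1 throughout.

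From these positions, sites on chromosomes 1 to 19 were compared in Python (3.11.15) using scipy (1.17.1) on numpy (2.4.6) arrays, and plotted by matplotlib (3.10.9). Site lists were matched within 1 kb and histone regions by an overlap of at least 1 bp. Shares have Clopper-Pearson intervals, differences of shares Newcombe intervals and the ratio of site numbers an exact conditional Poisson interval, at 95%. PCR reads without molecular identifiers are not independent, so these cover counting error only. The functions were tested on simulated lists. Positions count from 1. Named are the first 3 sites in list order of 5 classes, outside peaks of all 8 targets. Members, lists and alternatives were chosen with earlier results of these data known. GRO-seq and RNA-seq samples were not analysed here. Groups follow the sample labels.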

Additional observations from a re-analysis of the deposited data

How the results depend on the processing

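No paired analysis was possible because the LSD1 antibody has 1 library per genotype, with no shared replicate numbers, and no test was run. Of 58 recomputed values 26 stayed within the interval of the value reported, 30 moved outside it and 2 changed sign. The log2 ratio of site numbers, 0.026 with an interval that includes 0, was -0.36 by share of tags in peaks, also a change of sign, and 0.095 with sites within 5 kb merged. WT sites kept were 44.3% by overlap, 65.8% within 5 kb and 67.9% in the first 50% of each list. KO sites shared were 43.5%, 61.8% and 65.6% under the same settings. In the first 50% of each list WT sites kept were 53.2% by overlap and 70.5% within 5 kb.

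The Flag-LSD1n difference of lost minus kept sites was -8.28 points by overlap, -11.1 in the first 50% of each list, -14.8 averaged over 5 parts, -2.92 with Flag at 0 h and -5.20 with overlapping Flag sites. For Flag-LSD1c these were -10.4, -12.5, -17.9, -14.1 and -7.35, and -17.3 with Flag at 1 h. For H3K4me2 they were -11.8 by overlap, -13.8 in the first 50%, -15.2 averaged and -16.7 with the mark at 1 h. The Flag-LSD1n difference of gained minus lost sites was 3.78 in the first 50%, -0.474 with Flag at 0 h and -0.686 with overlapping Flag sites, and the cause was not tested. WT sites in KO minus WT sites in the wild type list were -9.21 by overlap, -13.0 within 5 kb, -2.32 with the wild type list shortened to the length of the KO list and 8.28 with the wild type list at 1 h. Autosomes with X and Y added, and sites on peaks of all 8 targets left out, moved no recomputed value outside its interval. With 1 library per genotype the spread between cultures is unknown.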

Other observations

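Sites outside chromosomes 1 to 19 numbered 264 in the KO list, with 219 on X and 45 on Y, and 193 in the WT list, with 165 on X and 28 on Y. They were left out of the report.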
